A study of Mus musculus with 3 samples.

Results

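A set of 10 membrane transporters of the inner blood-retina barrier were followed in retinal endothelial cells (ECs): *Slc2a1*, *Slc16a1*, *Slc7a5*, *Slc3a2*, *Slc7a1*, *Slc38a5*, *Slc1a4*, *Mfsd2a*, *Slco1c1* and *Abcb1a*. They were taken by symbol, and all 10 were found among the 33696 genes of the count matrices. Droplet-based single-cell RNA sequencing had been run on retinas of mice at postnatal day 6 (P6), with vascular cells and microglia enriched on beads against CD31 and CD11b. There was 1 library per genotype: wild-type (WT) mice, *Tspan12* knockout (*Tspan12* KO) mice, which lack a Norrin co-receptor component in every cell, and *Ctnnb1* cKO mice. The *Ctnnb1* cKO mice carried floxed *Ctnnb1*, which encodes beta-catenin, and *Pdgfb*-iCreER, a Cre active in ECs, and were injected with tamoxifen daily from postnatal day 1 for 3 days. The strain background was C57BL/6, both sexes were used, each library pooled the retinas of mice of 1 genotype, and WT and knockout mice came from separate litters. Tamoxifen for the WT or *Tspan12* KO mice is not given in the sources used here, and Cre, tamoxifen, litter, library and genotype cannot be told apart.

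ECs of the retina are sealed by tight junctions, so nutrients reach the neurons through carriers in the endothelial membranes. GLUT1 (*Slc2a1*) carries glucose, LAT1 (*Slc7a5*) with its heavy chain 4F2hc (*Slc3a2*) carries large neutral amino acids, and MFSD2A carries lysophospholipids that hold docosahexaenoic acid. Norrin binds Frizzled4 on ECs with TSPAN12 as an auxiliary subunit and signals through beta-catenin, a pathway known to be needed for retinal vessel growth and for the barrier.

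The libraries differed in ways that touch every value below. ECs numbered 538 in WT against 288 for *Tspan12* KO and 2711 for *Ctnnb1* cKO, with 16124562, 6516516 and 12884101 unique molecular identifiers (UMIs, each marking 1 captured transcript). Their median depth was 15871.5, 15007.5 and 3360 UMIs per cell in the same order. The median mitochondrial share of their UMIs was 3.80% in WT against 2.28% for *Tspan12* KO and 0.375% for *Ctnnb1* cKO. All 8 endothelial markers were present in the ECs of each library, at summed levels of 5377, 6198 and 5872 counts per 1000000 UMIs (CPM). RNA of other cells was also counted in ECs: the 6 erythrocyte markers summed to 159 CPM in WT against 3047 for *Tspan12* KO and 247 for *Ctnnb1* cKO, and the 8 microglia markers to 143, 105 and 602. Between 21 and 37 cell barcodes were shared by any pair of libraries, at most 0.393% of the smaller library. With no replicate library there is no test of genotype. Values are CPM of UMIs summed over ECs, ratios are log2 of one library's CPM over another's, and 95% intervals cover counting error only. Fewer producing cells and less RNA per cell cannot be told apart in such sums.

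All 10 transporters were at least 2-fold higher in WT ECs than in the other WT cells, a difference passed by 9.59% of the genes counted. The log2 ratio ran from 2.04 for *Slc16a1* to 6.07 for *Abcb1a*. ECs made up 5.99% of the WT cells but gave 92.3% of the *Slc38a5* UMIs, 94.7% of those of *Abcb1a* and 91.2% of those of *Mfsd2a*. The lowest share was that of *Slc16a1*, 52.2%. For *Slc2a1*, *Slc3a2* and *Slc1a4* the shares were 58.4%, 65.3% and 67.5%. Progenitors, rods and microglia also carried *Slc2a1* and *Slc3a2*.

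Against WT, and summed over all ECs, the carriers divided into a group at least 2-fold lower in both knockout libraries and the rest. In the rest, the size or direction of the difference depended on the library or on the ECs taken. In some sets of ECs, some members of the first group also fell short of 2-fold, *Mfsd2a* among them. Counting changes of at least 2-fold after adding 5 CPM, 4 of 10 members were lower in *Tspan12* KO ECs (*Slc38a5*, *Slc16a1*, *Slc1a4* and *Mfsd2a*) and 0 were higher. Among all 13242 genes with at least 50 UMIs in ECs, 1.04% were lower by that rule and 0.521% were higher. In *Ctnnb1* cKO ECs 5 members were lower, the same 4 and *Slc7a1*, and 0 were higher, beside 4.96% and 3.87% of all genes. These were 657 lower and 513 higher genes, and with TMM scaling (trimmed mean of M values) they were 479 and 653. A gene below 5 CPM in WT cannot be called lower by this rule, and all members were above that level. With 1 CPM added instead, 2.88% of all genes were lower and 1.48% higher in *Tspan12* KO, and 9.81% and 6.81% in *Ctnnb1* cKO. The median log2 ratio of the members with 5 CPM added was -0.55 in *Tspan12* KO and -0.81 in *Ctnnb1* cKO, and that of all genes 0.0083 and -0.084. *Mfsd2a* and *Slc7a1* lay close to the threshold in *Ctnnb1* cKO: with TMM, which moved every ratio of this library up by 0.14, the count was 3, and it was also 3 without a *Ctnnb1* cKO cluster described below. Both comparisons share the WT library, so their resemblance is not independent evidence.

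**Figure D1:**
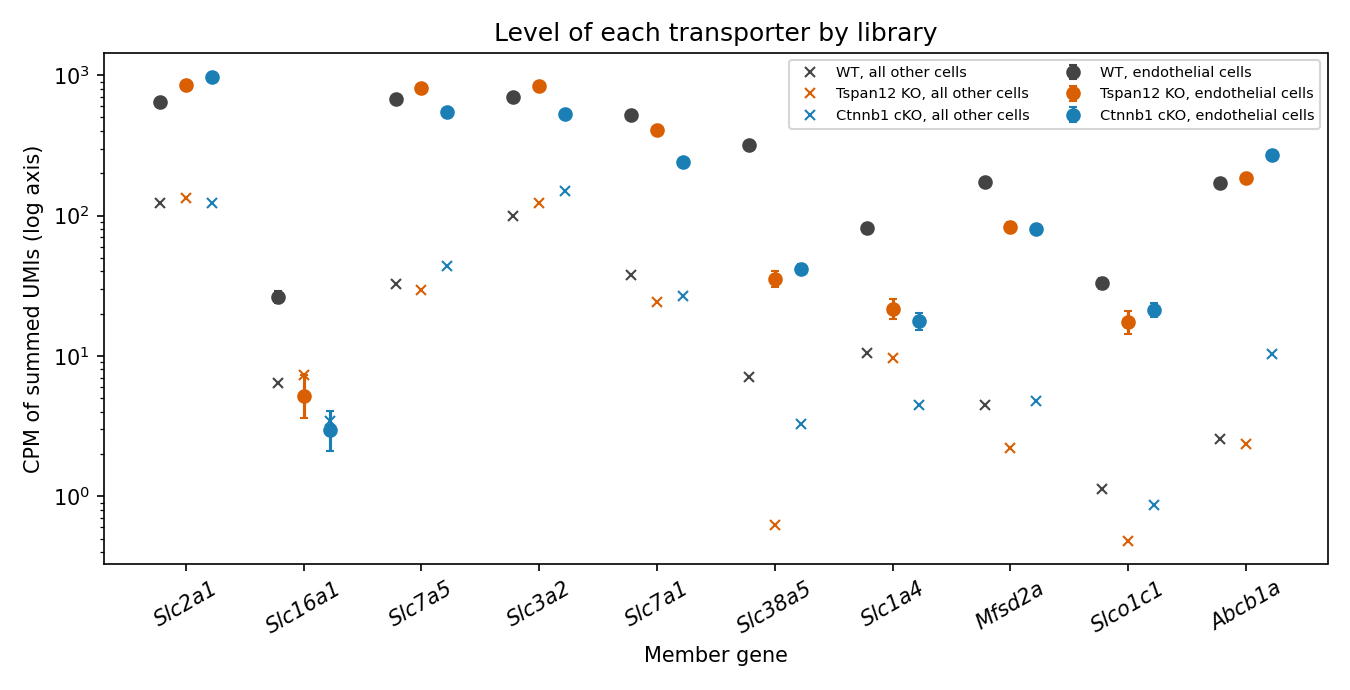
Level of each transporter in ECs (circles) and in all other cells (crosses) of the WT, *Tspan12* KO and *Ctnnb1* cKO libraries, as CPM of summed UMIs on a log axis, with 95% counting intervals on the circles. *Slc38a5*, *Slc1a4*, *Slc16a1* and *Mfsd2a* were at least 2-fold lower in ECs of both knockout libraries, and *Slc16a1* there lay among the crosses.

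*Slc38a5*, which encodes the glutamine and small neutral amino acid transporter SNAT5, had the largest ratio among the members in *Tspan12* KO. Its level was 319.5 CPM (310.8 to 328.4) in WT ECs against 35.3 (30.9 to 40.2) for *Tspan12* KO and 41.5 (38.1 to 45.2) for *Ctnnb1* cKO, 9.05-fold and 7.69-fold below WT. This gave log2 ratios of -3.18 (-3.38 to -2.99) and -2.94 (-3.07 to -2.82). Set against each other, *Ctnnb1* cKO was above *Tspan12* KO by 0.23 (0.0089 to 0.46). The intervals of the knockout libraries do not reach that of WT.

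*Slc16a1* encodes the monocarboxylate transporter MCT1, which moves lactate and ketone bodies. It was at 26.3 CPM (23.9 to 28.9) in WT against 5.22 (3.61 to 7.29) for *Tspan12* KO and 2.95 (2.09 to 4.05) for *Ctnnb1* cKO, on 424, 34 and 38 UMIs. In both knockout libraries this was no higher than in the other cells of the same library, at 7.27 and 3.45 CPM. Over all ECs, *Slc16a1* could therefore not be told there from its level in the other cells. Those differ among themselves, in *Tspan12* KO for example with rods at 3.95 CPM and progenitors at 15.7. MCT1 needs the chaperone basigin (*Bsg*) at the membrane, and *Bsg* was also lower, at 1886, 857 and 431 CPM.

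*Slc1a4*, which encodes the alanine, serine and cysteine carrier ASCT1, was at 81.4 CPM (77.1 to 86.0) in WT against 21.6 (18.2 to 25.5) for *Tspan12* KO and 17.6 (15.4 to 20.1) for *Ctnnb1* cKO. The log2 ratios to WT were -1.91 (-2.17 to -1.66) and -2.21 (-2.42 to -2.004). *Mfsd2a* was at 174.5 CPM (168.1 to 181.1) in WT and, in the same order, 83.0 (76.2 to 90.3) and 79.9 (75.1 to 84.9). Its ratios of -1.07 (-1.21 to -0.94) and -1.13 (-1.23 to -1.02) left a difference between the knockout libraries of -0.056 (-0.21 to 0.097), which includes 0.

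The stretch upstream of the start is printed for the 4 genes past the 2-fold rule in both libraries, to show what else the members of that group hold. The sequences are from RefSeq on GRCm38.p6, read 5′ to 3′ on the gene's strand and ending at the base before the start, and bases in annotated same-strand exons are left out. An exon of a noncoding transcript on the other strand overlaps the *Mfsd2a* stretch. Capitals mark matches on either strand to CTTTGA, the core that TCF/LEF factors bind with beta-catenin, and to ACGTG, the core of HIF sites, which also lies within the E-box CACGTG, where it matches on both strands.
Slc38a5 (chrX:8271261-8271380, plus strand): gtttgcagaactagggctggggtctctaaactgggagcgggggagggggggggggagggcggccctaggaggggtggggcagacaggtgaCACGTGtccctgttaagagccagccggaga
Mfsd2a (chr4:122961189-122961438, minus strand): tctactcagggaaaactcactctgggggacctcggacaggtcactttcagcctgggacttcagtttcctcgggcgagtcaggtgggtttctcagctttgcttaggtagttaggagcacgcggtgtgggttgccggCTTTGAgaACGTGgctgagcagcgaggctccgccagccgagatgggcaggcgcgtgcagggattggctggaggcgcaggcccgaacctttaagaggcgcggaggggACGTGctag
Slc16a1 (chr3:104638414-104638663, plus strand): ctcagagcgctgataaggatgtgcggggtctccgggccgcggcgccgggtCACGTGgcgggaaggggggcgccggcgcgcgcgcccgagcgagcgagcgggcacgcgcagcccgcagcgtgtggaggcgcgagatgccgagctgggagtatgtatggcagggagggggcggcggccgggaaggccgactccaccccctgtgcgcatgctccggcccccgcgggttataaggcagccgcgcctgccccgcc
Slc1a4 (chr11:20332714-20332963, minus strand): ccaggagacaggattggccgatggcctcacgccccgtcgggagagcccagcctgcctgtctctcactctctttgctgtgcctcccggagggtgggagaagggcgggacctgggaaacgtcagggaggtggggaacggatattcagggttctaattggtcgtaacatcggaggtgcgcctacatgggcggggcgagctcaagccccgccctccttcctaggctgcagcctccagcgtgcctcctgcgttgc

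Of these 4, only *Mfsd2a* holds CTTTGA in its 250 bases. Among the 9 members with a promoter in the table, 4 hold CTTTGA (*Mfsd2a*, *Slc3a2*, *Slc7a1* and *Abcb1a*) and 5 hold ACGTG (*Slc38a5*, *Slc2a1*, *Mfsd2a*, *Slc3a2* and *Slc16a1*), against 13.8% and 16.6% of all 32851 promoter windows of that length. TGATGNAA, the composite site that ATF4 binds in genes of the amino acid response, was found in 0 of the 9 and in 3.45% of all windows. For *Slc7a1*, whose windows held 0 and 3 matches to CTTTGA, a match in either window was counted, whereas the percentages are of single windows. A match is a run of letters and not a bound site, and the windows were not matched for base composition.

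*Slc7a1*, which encodes the cationic amino acid transporter CAT1 for arginine and lysine, differed between the knockout libraries in the sum of all ECs. It was at 517 CPM (506 to 528) in WT against 408 (393 to 424) for *Tspan12* KO and 239.6 (231 to 248) for *Ctnnb1* cKO, with log2 ratios of -0.34 (-0.40 to -0.28) and -1.11 (-1.17 to -1.05). The direct ratio of *Ctnnb1* cKO to *Tspan12* KO was -0.77 (-0.84 to -0.69). A difference of this size was not found in every set of ECs. In the whole-retina cluster with most WT cells *Tspan12* KO was at 351 CPM (334 to 369). *Ctnnb1* cKO was at 458 CPM (364 to 569) there, on 82 UMIs in 50 cells, and the intervals overlap. In cycling ECs the order held but the levels were close, at 287 CPM in *Tspan12* KO and 276 in *Ctnnb1* cKO.

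The subunits of the large neutral amino acid transporter differed from WT in the same direction as each other, upward in *Tspan12* KO, on the strength of the cells described below, and downward in *Ctnnb1* cKO. *Slc7a5* was at 678 CPM (666 to 691) in WT against 811 (789.6 to 833) for *Tspan12* KO and 542 (529 to 555) for *Ctnnb1* cKO. *Slc3a2* was at 696 (683 to 709), 842 (820.03 to 865) and 526 (513 to 538). In *Ctnnb1* cKO over *Tspan12* KO the ratios were -0.58 (-0.63 to -0.53) and -0.68 (-0.73 to -0.63). None of these ratios to WT reached 2-fold.

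*Slc2a1* was higher in both libraries over all ECs, at 643 CPM (631 to 655) in WT against 850.5 (828 to 873) for *Tspan12* KO and 965 (948 to 982) for *Ctnnb1* cKO, with log2 ratios of 0.40 (0.36 to 0.45) and 0.59 (0.55 to 0.62). *Abcb1a*, which encodes the drug efflux pump P-glycoprotein, was at 171 CPM (165 to 178) in WT against 185 (175 to 196) for *Tspan12* KO and 270.4 (262 to 279.5) for *Ctnnb1* cKO. Its near-identical paralog *Abcb1b* was at 7.38, 7.52 and 9.78 CPM, and reads shared between the copies could be assigned to either or to none. *Slco1c1*, which encodes the thyroid hormone carrier OATP1C1, was at 32.9 CPM (30.2 to 35.9), 17.5 (14.4 to 21.0) and 21.3 (18.8 to 23.9).

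A large part of the *Tspan12* KO UMIs of *Slc2a1*, *Slc7a5*, *Slc3a2*, *Slco1c1* and *Abcb1a* came from 62 of its 288 ECs. ECs of all libraries were clustered again without the members or the other listed transporters among the genes used, and 1 of 10 subclusters (subcluster 9) held these 62 cells, 1 WT cell and 7 *Ctnnb1* cKO cells. It was led by *Nkd1* and also by *Apcdd1*, feedback inhibitors of Wnt signaling that beta-catenin is known to induce, by *Tnfrsf19* and by haemoglobin genes. Of the 62 cells, 56 lay in the unnamed whole-retina cluster that held 1767 *Ctnnb1* cKO ECs and 5 WT cells, and a subcluster led by the same gene with 62 *Tspan12* KO cells was found at a clustering resolution of 0.5. The cells were deep, with a median of 25187.5 UMIs, and their erythrocyte markers summed to 2307 CPM, close to the 2263 CPM of the proliferative *Tspan12* KO subcluster. They made up 21.5% of the *Tspan12* KO ECs and 26.04% of the EC UMIs, but gave 63.1% of the *Slc2a1* UMIs, 53.7% of those of *Slc7a5*, 59.6% of those of *Abcb1a* and 91.2% of those of *Slco1c1*. Their share of *Slc38a5* UMIs was 5.22%.

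Within subcluster 9, *Slc2a1* reached 2060.3 CPM (1993 to 2129.8), *Slc7a5* 1672 (1611 to 1735) and *Slc3a2* 1617 (1557 to 1679). *Slco1c1* was at 61.3 CPM (50.1 to 74.3) there and at 2.07 in the other *Tspan12* KO ECs. *Slc38a5* went the other way, at 7.07 CPM (3.65 to 12.4) against 45.2 outside. *Mfsd2a* was higher inside than outside, at 140.3 against 62.9 CPM. High levels of the glucose and large neutral amino acid carriers thus went with low *Slc38a5* in these cells.

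Without subcluster 9 the sign of 4 of the *Tspan12* KO ratios turned. *Slc2a1* was then -0.60, *Slc7a5* -0.42, *Slc3a2* -0.29 and *Abcb1a* -0.76 on the log2 scale, while *Slco1c1* reached -3.99 (-5.06 to -3.10). *Slc38a5*, *Slc16a1*, *Slc1a4* and *Mfsd2a* stayed lower, at -2.82, -1.94, -1.84 and -1.47. The higher *Slc2a1* in the sum of *Tspan12* KO ECs was therefore not found in the other 226 cells. Whether the 62 cells are a state, a vessel type or a feature of this library was not tested.

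**Figure D2:**
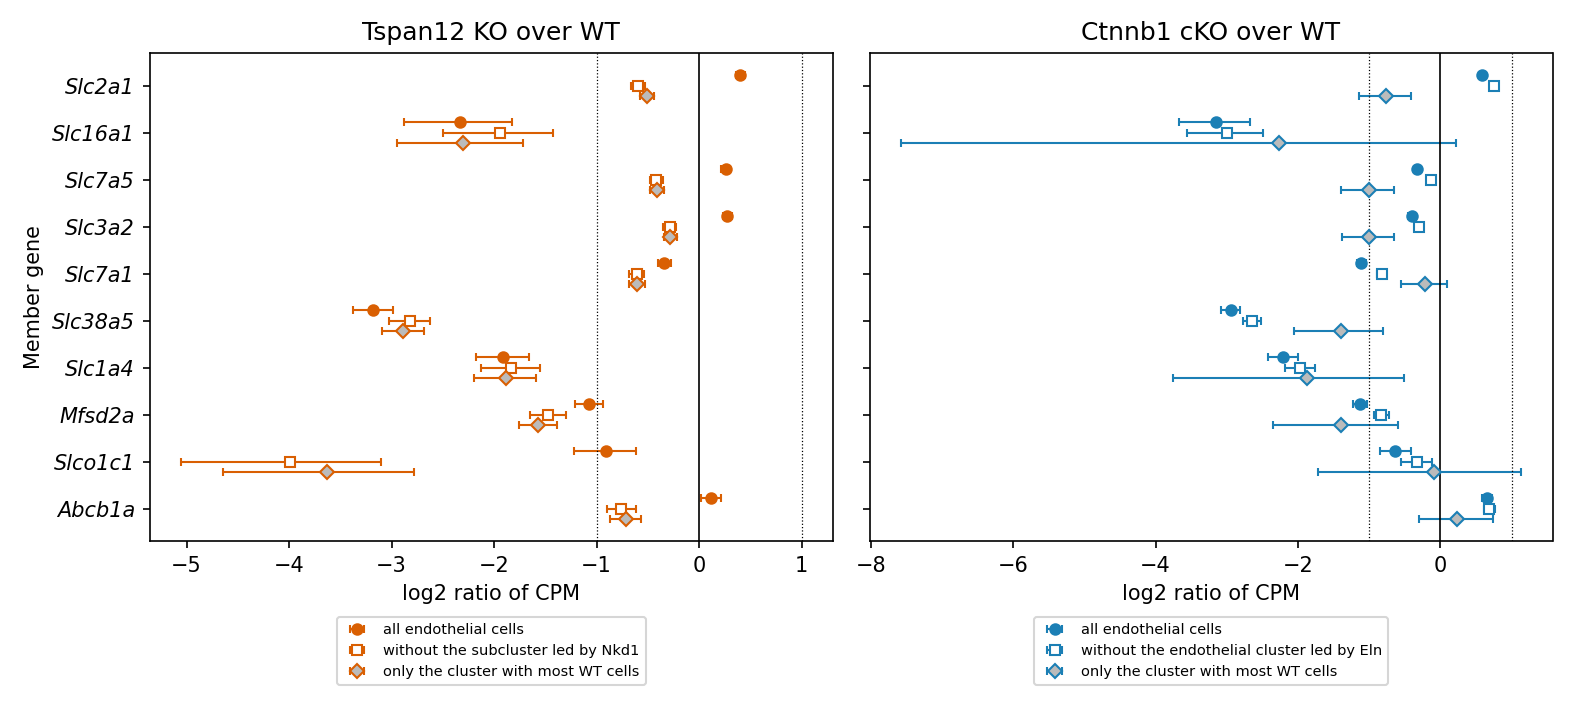
Log2 ratio of each transporter in ECs, *Tspan12* KO over WT (left) and *Ctnnb1* cKO over WT (right), with 95% counting intervals. Filled circles take all ECs, open squares leave out the subcluster led by *Nkd1* (left) or the cluster led by *Eln* (right), and diamonds take only the whole-retina endothelial cluster with most WT cells. Dotted lines mark 2-fold, and the circles of *Slc2a1*, *Slc7a5*, *Slc3a2* and *Abcb1a* on the left lie above 0 while their squares and diamonds lie below it.

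ECs of the libraries lay mostly in different clusters, so the ratios were also taken within clusters. Of the 4 whole-retina endothelial clusters, cluster 15 held 480 WT, 201 *Tspan12* KO and 50 *Ctnnb1* cKO cells. It was led mostly by mitochondrial genes and was proliferative-like by its markers. WT ECs had the highest mitochondrial share, so a cell state and a difference between libraries cannot be told apart in it. Most *Ctnnb1* cKO ECs were instead in the cluster with 1767 of them mentioned above. *Slc38a5* was among the genes leading cluster 15, although the members were not used to form it. In it *Slc38a5* was at 337 CPM in WT against 45.6 for *Tspan12* KO and 129 for *Ctnnb1* cKO, and *Mfsd2a* at 177, 59.6 and 67.0. *Slc2a1* was lower than WT in both there, at 609, 429 and 358 CPM, the last resting on 64 UMIs in 50 cells.

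In the arterial-like cluster, with 52 WT, 24 *Tspan12* KO and 334 *Ctnnb1* cKO cells, the pattern differed for *Mfsd2a* and, in *Tspan12* KO, for *Slc16a1*. When ECs were clustered again, all 52 WT cells fell in unnamed subcluster 2, and 259 of the *Ctnnb1* cKO cells in arterial-like subcluster 6. Of the *Tspan12* KO cells, 15 were in subcluster 2 and 4 in subcluster 6. The ratios here may therefore set unlike ECs against each other. *Mfsd2a* was at 152 CPM in WT against 155 for *Tspan12* KO and 134 for *Ctnnb1* cKO, with log2 ratios of 0.031 (-0.49 to 0.52) and -0.18 (-0.51 to 0.14), both intervals including 0. *Slc16a1* was at 19.1 CPM in WT and 29.6 (12.8 to 58.3) in *Tspan12* KO, a log2 ratio of 0.63 (-0.73 to 1.83) on 24 and 8 UMIs. *Slc38a5* remained lower, at 118, 33.3 and 9.56 CPM. *Slc2a1* was there higher in both knockout libraries, at 1054, 1206 and 1801 CPM. *Slc7a5* was higher in both as well, at 355, 647 and 497 CPM, the opposite of its *Ctnnb1* cKO ratio over all ECs. The *Tspan12* KO values here rest on 24 cells, with 326 UMIs of *Slc2a1* and 175 of *Slc7a5*. Of these cells, 4 belonged to subcluster 9, and their part in the values was not tested.

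Among *Ctnnb1* cKO ECs, the carriers sorted the subclusters into several profiles. The tip-like subcluster 0 (775 cells, led by *Cdh13* and *Kit* and with *Angpt2* and *Kcne3*) had the most *Slc38a5* of the *Ctnnb1* cKO subclusters with at least 20 cells, 105.5 CPM (94.7 to 117), and 386 CPM of *Slc7a1*. Subcluster 1, unnamed and led by *Six3* (734 cells), had *Slc2a1* at 1624 CPM (1584 to 1665) and *Slc38a5* at 5.84. Arterial-like subcluster 6 (282 cells of this library) held *Slc2a1* at 1860.2 CPM (1764 to 1961), *Abcb1a* at 542 (490.4 to 597) and *Slco1c1* at 54.7 (39.3 to 74.2).

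Subclusters 3 and 7 had little *Mfsd2a* and *Slc7a1*. Subcluster 3 (336 cells, led by *Eln* and *Mgp*) had 0 *Slc38a5* UMIs, which allows up to 2.03 CPM (3 counts), 3 UMIs of *Mfsd2a* (2.03 CPM) and 18.9 CPM of *Slc7a1*. Subcluster 7 (226 cells, led by *Rasd1* and *Gpihbp1*) had 4.90 CPM of *Slc38a5*, 3.92 of *Mfsd2a*, 14.7 of *Slc7a1* and the lowest *Slc2a1* of any subcluster shown, 115.6 CPM (95.7 to 138). *Abcb1a* was at 337 CPM in subcluster 3, above its WT level over all ECs. Of their cells, 328 and 203 lay in a whole-retina cluster led by *Eln*, which held 560 *Ctnnb1* cKO cells, 1 WT cell and 4 *Tspan12* KO cells. Without that cluster the *Ctnnb1* cKO log2 ratios of *Mfsd2a* and *Slc7a1* were -0.83 and -0.83, under 2-fold, and that of *Slc38a5* was -2.65. Bulk levels of *Mfsd2a* and *Slc7a1* in this library thus mix ECs with and nearly without the transcript.

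**Figure D3:**
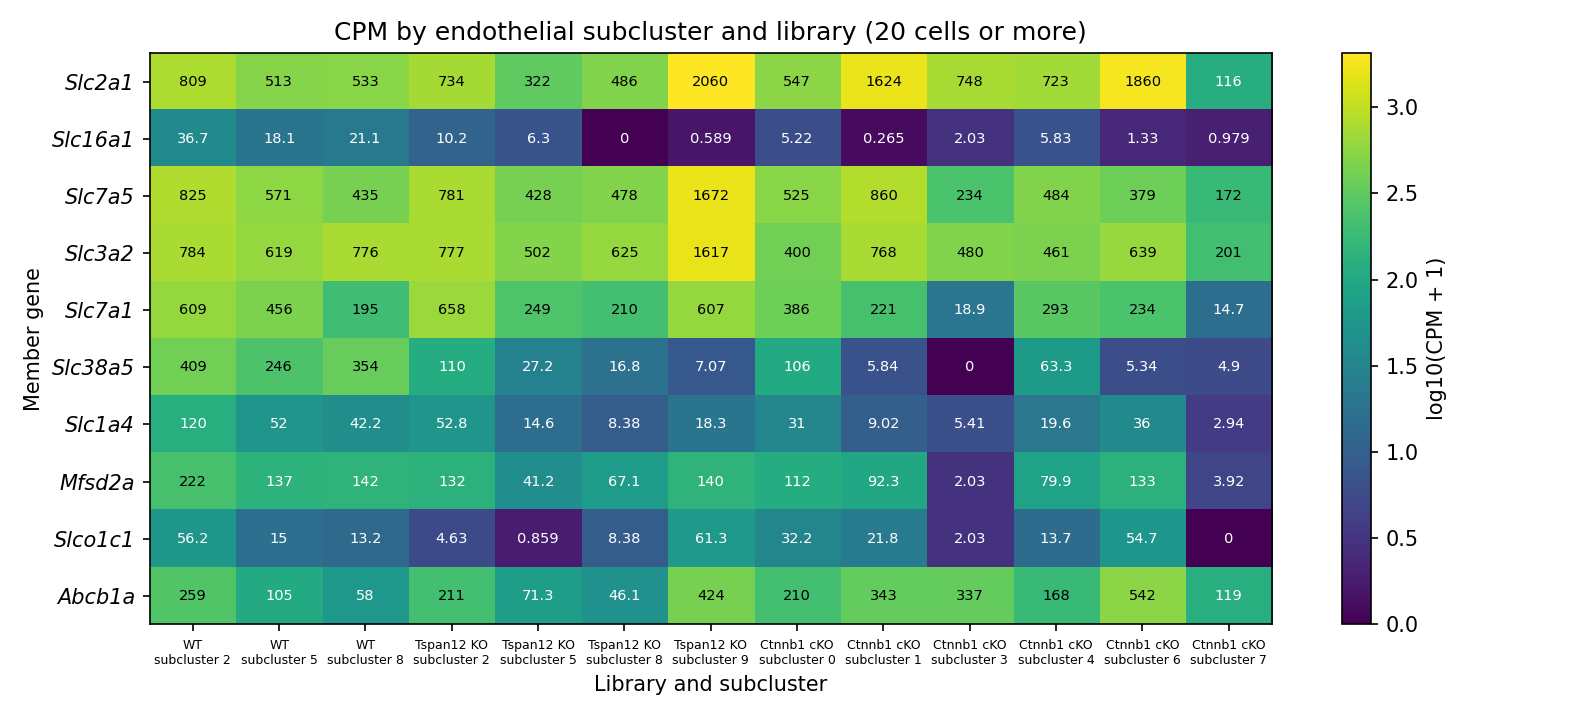
CPM of each transporter (rows) in each endothelial subcluster and library with at least 20 cells (columns), colored by log10(CPM + 1) and printed in each cell of the plot. *Tspan12* KO subcluster 9 stands out for *Slc2a1*, *Slc7a5* and *Slc3a2*, and *Ctnnb1* cKO subclusters 3 and 7 for low *Mfsd2a* and *Slc7a1*.

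WT ECs lay in subclusters 2, 5 and 8, with 299, 176 and 62 cells, apart from 1 cell. In them *Slc38a5* was at 409 CPM in subcluster 2, with *Dach1* among its leading genes, and 246 in the proliferative-like subcluster 5, and *Slco1c1* was at 56.2 and 15.05. In *Tspan12* KO the same subclusters had 110.2 and 27.2 CPM of *Slc38a5*, log2 ratios of -1.89 (-2.17 to -1.63) and -3.17 (-3.49 to -2.88). *Slc7a1* had ratios of 0.11 (-0.0047 to 0.23) in subcluster 2 and -0.87 (-0.98 to -0.76) in subcluster 5. In subcluster 8 *Slc38a5* was at 354 CPM in WT and 16.8 in *Tspan12* KO. This subcluster held haemoglobin and rod genes among its leaders, with erythrocyte markers at 31864 CPM in *Tspan12* KO and 58.0 in WT.

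Cycling ECs, called from G2/M genes after thinning each cell to 2000 UMIs, were 29.4% of the ECs in WT against 22.3% for *Tspan12* KO and 17.6% for *Ctnnb1* cKO. Comparing cycling with cycling ECs, the ratios of *Slc38a5* were -3.16 (-3.54 to -2.79) and -2.27 (-2.53 to -2.03), beside -3.24 (-3.47 to -3.01) and -3.21 (-3.37 to -3.05) in ECs not cycling, and those of *Mfsd2a* -1.62 and -1.10. *Slc2a1* was lower in cycling *Tspan12* KO ECs, at -0.34 (-0.44 to -0.23), and higher in those not cycling, at 0.56 (0.51 to 0.62). In WT the members were at the same level or lower in cycling than in other ECs, the log2 ratios running from -0.97 for *Slco1c1* to -0.022 for *Slc7a1*.

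Per cell, the libraries were compared at an equal depth of 2000 UMIs, which left out 18 WT, 28 *Tspan12* KO and 824 *Ctnnb1* cKO ECs. *Slc38a5* was detected in 42.5% of WT ECs (38.2 to 46.9%), 6.54% (3.85 to 10.3%) of *Tspan12* KO ECs and 5.67% (4.67 to 6.81%) of *Ctnnb1* cKO ECs. In rods, which should lack it and stand for free RNA, 1.38% of WT cells had a UMI, as did 0 of 1282 *Tspan12* KO rods, which allows up to 0.234%, and 0 of 41 *Ctnnb1* cKO rods, which allows up to 7.32%. *Mfsd2a* was detected in 34.6%, 17.3% and 12.98% of ECs, and *Slc7a1* in 60.6%, 50.8% and 30.1%.

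*Slc2a1* was detected in 69.2% (65.1 to 73.2%) of WT ECs against 65% (58.9 to 70.8%) for *Tspan12* KO and 69.6% (67.4 to 71.7%) for *Ctnnb1* cKO. The intervals overlap, so a larger share of ECs with the transcript was not detectable beside its higher sums, and rods of the same libraries reached 22.6%, 18.1% and 24.4%. *Slc16a1* was detected in 4.04% of WT ECs and in 0.77% and 0.64% of the knockout ECs, where *Tspan12* KO rods had 0.86%. *Abcb1a* was detected in 32.7%, 31.2% and 39.1%.

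**Figure D4:**
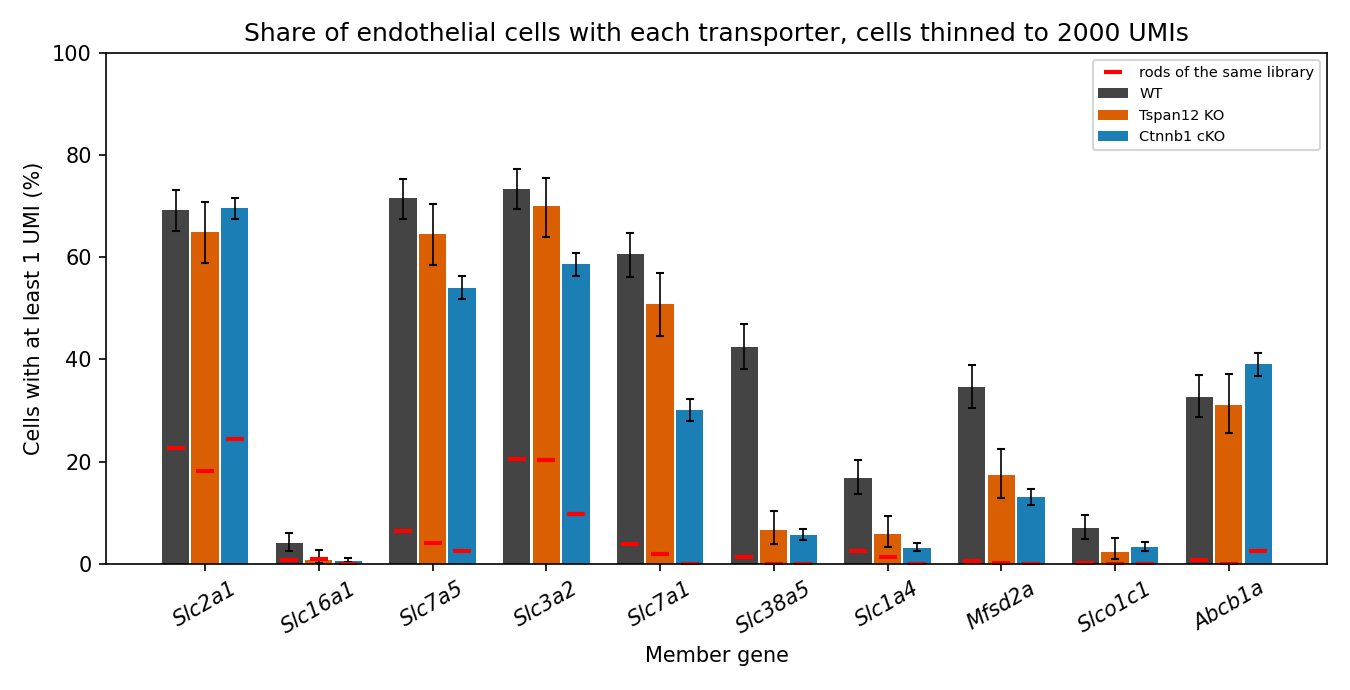
Share of ECs with at least 1 UMI of each transporter after each cell was thinned to 2000 UMIs, for the WT, *Tspan12* KO and *Ctnnb1* cKO libraries, with exact 95% intervals, and the share in rods of the same library as red marks. *Slc38a5*, *Slc1a4* and *Mfsd2a* were detected in fewer ECs of both knockout libraries, while the shares of *Slc2a1* lay between 65% and 69.6%.

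A WT EC had on average 4.12 of the 10 transporters (median 4), a *Tspan12* KO EC 3.14 (median 3) and a *Ctnnb1* cKO EC 2.77 (median 3). At least 5 were found in 40.4%, 24.2% and 12.1% of ECs. The subunits of the large neutral amino acid transporter occurred together: *Slc3a2* was detected in 78.2% of WT ECs with *Slc7a5* and 61.5% of those without, in 83.9% and 44.6% of *Tspan12* KO ECs, and in 64.4% and 51.8% of *Ctnnb1* cKO ECs.

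Outside ECs, *Slc38a5* in rods was at 4.62 CPM (3.37 to 6.19) in WT against 0.30 (0.081 to 0.76) for *Tspan12* KO. In the 81 *Ctnnb1* cKO rods it had 0 UMIs, which allows up to 11.6 CPM (3 counts) and so cannot be set against WT. Cells named pericyte or smooth muscle carried endothelial transporters, with *Slc2a1* at 666 CPM and *Abcb1a* at 137 in *Tspan12* KO and at 316 and 155 in *Ctnnb1* cKO, whereas rods had 0.67 and 3.87 CPM of *Abcb1a*. The part of endothelial RNA in those pericyte values was not tested. *Slc3a2* was also carried by microglia, at 297 CPM in WT against 318 for *Tspan12* KO and 222 for *Ctnnb1* cKO.

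Of 40 other barrier transporters on a list, 37 had at least 50 UMIs in ECs. In *Tspan12* KO 4 were lower by the same 2-fold rule, *Slc22a8* (organic anion transporter OAT3), *Tfrc* (transferrin receptor), *Lrp8* and *Bsg*, and 1 was higher, *Slco1a4*, beside 1.04% and 0.521% of all genes. In *Ctnnb1* cKO 8 were lower, those 4 and *Slc16a4*, *Slc40a1* (ferroportin, which exports iron), *Slc1a1* and *Abca1*, and 2 were higher, *Slco1a4* and *Lrp1*, beside 4.96% and 3.87% of all genes. The list's median log2 ratio was -0.043 in *Tspan12* KO and -0.22 in *Ctnnb1* cKO, where the median of all genes was 0.0083 and -0.084. *Slc22a8* was at 32.3, 3.99 and 4.89 CPM in WT, *Tspan12* KO and *Ctnnb1* cKO, and *Tfrc* at 152, 42.2 and 20.3. *Slco1a4*, an organic anion carrier of brain vessels, was at 4.22, 46.3 and 43.4 CPM.

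Genes of the amino acid response, which ATF4 induces when amino acids run short, were listed because *Slc7a5*, *Slc3a2*, *Slc7a1* and *Slc1a4* are known ATF4 targets. Of 25 listed, 24 were found and 23 had at least 50 UMIs. In *Tspan12* KO 0 were past 2-fold in either direction, and in *Ctnnb1* cKO 0 were lower and 3 were higher: *Sars* (60.4 to 136 CPM), *Ddit4* (16.7 to 92.6) and *Cebpb* (18.4 to 58.8). The shares of all genes are those given for the transporters, and the medians were 0.065 and 0.076 beside 0.0083 and -0.084 for all genes.

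Finally, the genes whose level followed the members most closely were sought over the 13 sums of subcluster and library shown above, among 10317 genes. These sums share libraries, depth and cell cycle, and with so few points high correlations are easily found, so they are descriptions. *Angptl4* was closest to both *Slc38a5* (Pearson's r = 0.97) and *Slc16a1* (0.94). *Slc7a5* was followed most closely by the zinc and iron carriers *Slc39a8* (0.97), *Slc39a10* (0.95) and *Slc40a1* (0.94), *Slc2a1* by *Kank1* (0.93) and *Abcb1a* by *Sptlc2* (0.97). *Mettl26* was closest to *Mfsd2a* (0.96), *Trim32* to *Slc3a2* (0.91), *Tmem154* to *Slco1c1* (0.89) and *Samd9l* to *Slc7a1* (0.94).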

How the data were processed

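The authors made the deposited matrices of raw UMI counts per gene and barcode with Cell Ranger from 3′ libraries of the 10x Genomics v3 chemistry. The matrix headers name Cell Ranger version 8.0.1 and the submitters' processing notes name the build GRCm39, while the study's methods give another version and build. No coordinate was therefore taken from the files. The total per library was 92684519 UMIs in WT against 137114957 for *Tspan12* KO and 37008362 for *Ctnnb1* cKO.

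Barcodes needed 250 genes, 500 UMIs and a mitochondrial share of no more than 15%. Scrublet's highest scores were removed at 0.8% per 1000 cells (760 WT, 1656 *Tspan12* KO and 665 *Ctnnb1* cKO cells). Its automatic threshold, which called 0, 1 and 343 cells, was not used. From 2000 variable genes without the members and the other listed transporters, 30 principal components were clustered with leidenalg version 0.10.2 at resolution 1 (scanpy version 1.11.5). No integration across libraries was applied. Classes were named from marker lists, so "-like" names rest on at least 3 markers, and ECs were clustered again.

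UMIs were summed per library and class. Intervals at 95% came from the Poisson distribution (CPM), the conditional binomial (ratios) and the method of Clopper and Pearson (shares), each exact. Where a count was 0, the limit for a share was 3 counts of the total. For the 2-fold rule 5 CPM were added to both sides, among genes with at least 50 UMIs in ECs. Samples were grouped by the genotype in their labels. TMM came from edgeR version 4.0.16, and the scripts were tested on simulated data. The members, the lists and the rule for genes named (all members, listed genes past 2-fold, *Bsg*, *Abcb1b* and the closest genes by correlation) were chosen with earlier results of these data known. Likeness was taken over genes with at least 200 UMIs. Promoters were matched by symbol for 9 of 10 members, with 2 windows for *Slc7a1*. The gene closest to *Slc1a4* is not reported here.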

Additional observations from a re-analysis of the deposited data

Results flagged for a closer look

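For 3 members the difference from WT had one sign in ECs and the other in the sum of all remaining cells, with both counting intervals away from 0. The differences between ECs and other cells were not tested, since each genotype is 1 library. *Slc7a5* in *Tspan12* KO was at a log2 ratio of 0.26 in ECs and -0.15 in the other cells (-0.23 to -0.061). Without the 62 ECs of the subcluster led by *Nkd1* the EC ratio was -0.42 (-0.48 to -0.35), the same sign as in the other cells. In *Ctnnb1* cKO it was at -0.32 in ECs and 0.44 in the other cells (0.32 to 0.56). *Slc3a2* in *Ctnnb1* cKO was at -0.40 in ECs and 0.60 in the other cells (0.54 to 0.66). Within single classes its ratio was -0.42 in microglia, -0.90 in rods, -0.021 in amacrine cells and 0.037 in unnamed cells. It was 0.46 in progenitors and 0.65 (-0.0022 to 1.24) in bipolar cells. The sum of the other cells thus does not stand for each class. *Slc16a1* in *Tspan12* KO was at -2.33 in ECs and 0.18 in the other cells (0.0021 to 0.37). The mix of cell types also differs between libraries outside ECs, with 1369 rods in WT against 2521 for *Tspan12* KO and 81 for *Ctnnb1* cKO and with 283, 368 and 2130 microglia.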

How the results depend on the processing

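*Slc38a5*, *Slc16a1*, *Slc1a4*, *Mfsd2a* and *Slco1c1* kept a negative ratio in both comparisons under each of 14 alternatives run (13 for *Slco1c1* in *Ctnnb1* cKO, which had 0 UMIs in the subclusters used for WT subcluster weights). In *Ctnnb1* cKO the counting interval of *Slco1c1* then included 0 in the cluster with most WT cells, at -0.094 (-1.72 to 1.14), in cells taken by markers, at -0.19 (-0.40 to 0.019), and in cycling ECs, at -0.50 (-1.05 to 0.025), as did that of *Slc16a1* in the first of these, at -2.27 (-7.58 to 0.21). No interval was computed for the mean over cells or with WT subcluster weights. For *Slc38a5* the ratio ran from -4.42 to -2.09 in *Tspan12* KO and from -3.42 to -1.39 in *Ctnnb1* cKO. In *Tspan12* KO the ratio changed sign under 6 alternatives for *Slc2a1*, *Slc7a5* and *Slc3a2*, under 7 for *Abcb1a* and under 1 for *Slc7a1*. In *Ctnnb1* cKO it did so under 1 for *Slc2a1* (only the cluster with most WT cells, -0.77) and 1 for *Slc7a5* (cells with 3 of 8 endothelial markers, 0.10). The members past 2-fold and lower in *Ctnnb1* cKO were 3 with TMM, 3 in cells taken by markers and 3 without the cluster led by *Eln*; those higher were 1 at a threshold of 1.5-fold and 1 in cells taken by markers. With a pseudocount of 1 CPM, 2 amino acid response genes were lower in *Ctnnb1* cKO. The mean number of members per EC in WT, *Tspan12* KO and *Ctnnb1* cKO was 2.70, 2.16 and 1.89 at 1000 UMIs and 7.40, 5.39 and 3.61 without thinning.

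Over all genes, 138 were lower and 69 higher in *Tspan12* KO, and 382 and 196 with a pseudocount of 1 CPM, 598 and 485 at 1.5-fold, 423 and 200 in cells taken by markers, and 244 and 212 after thinning. Higher genes numbered 116 without doublet removal, 104 in ECs not cycling and 43 without the subclusters led by haemoglobin genes. In *Ctnnb1* cKO the 657 and 513 became 1299 and 902, 2154 and 1332, and 1073 and 653 under the first 3 of these, and 1525 and 751 in the cluster with most WT cells, whose 50 cells limit the counts. Leaving out subclusters, the cluster with most WT cells and cycling ECs alone were alternatives chosen after seeing the data. The planned set of subclusters with at least 10% of their cells from every library held 0 subclusters and gave no value. No paired analysis was possible because each genotype has 1 library. The causes of these changes were not tested. Depth limits *Slc16a1* and *Slco1c1* most, with 34 to 531 UMIs per library.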
